A study of Mus musculus with 13 samples.

Results

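Thyroid hormone activation, entry and reception were followed in kidneys of mice with polycystic kidney disease through 5 genes: the deiodinases Dio1 and Dio2, the nuclear receptors Thra and Thrb, and the transporter Slc16a10. The genes were picked by symbol, with kidney results of these samples already in view, out of the 28183 genes of the kidney table, and all 5 were listed once and passed the filter on low values. They are therefore described by their values, without p-values. Of the 2016 genes in the table for cultured cells, Slc16a10 alone was among them. Kidneys came from C57BL/6 mice in 4 groups of 2 libraries each. At postnatal day 10, the Pkd1 controls (KSP/Cre-;Pkd1f/f) carried a floxed Pkd1 gene without Cre, and the Pkd1 knockouts (KSP/Cre+;Pkd1f/f) added a Cre driven by the promoter of Cdh16, active in tubule epithelium. At postnatal day 20, the Pkd2 controls (Pkhd1/Cre-;Pkd2f/f) carried a floxed Pkd2 gene without Cre, and the Pkd2 knockouts (Pkhd1/Cre+;Pkd2f/f) added a Cre active in collecting ducts. Cells of the mIMCD-3 line, from the inner medullary collecting duct of the mouse, received 10 nM of a gapmer, an antisense oligonucleotide that directs cleavage of its target, for 48 h: a control sequence in 2 libraries and one aimed at Hoxb3os, a long noncoding RNA, in 3. Separate animals or cultures behind the replicates are not stated in the labels, and the errors below then cover only the spread of these libraries, which may be technical.

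The thyroid gland secretes mostly thyroxine, which becomes the receptor ligand triiodothyronine when a deiodinase removes an iodine from its outer ring. Dio1 does this in liver and in the proximal tubule of the kidney, while Dio2, a high-affinity enzyme of the endoplasmic reticulum, serves brown fat, pituitary and brain. The hormone enters cells through carriers such as Slc16a10 (MCT10), and binds the receptors encoded by Thra and Thrb, which sit on DNA with a retinoid X receptor and recruit corepressors or coactivators.

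Values are the authors' scaled expression values, which behave like reads scaled to library size and then by a factor per library. The 8 kidney libraries held 30.7 to 94.4 M recovered reads, and mitochondrially encoded genes took 22.05% to 41.4% of them. The floxed genes were near their control level in whole kidney: Pkd1 differed by -0.08 ± 0.19 (log2 ± SE) in the Pkd1 knockouts and Pkd2 by -0.32 ± 0.21 in the Pkd2 knockouts (limma, adjusted p = 0.817 and 0.332). A floxed deletion removes part of a gene in some of the cells, so these whole-gene values do not check the genotypes, and groups are as the labels give them. Pkd2 knockout replicates 1 and 2 stood apart from each other on the first principal component (-0.76 and 33.4, with the Pkd1 knockouts at 46.5 and 46.3). Xist, transcribed from the inactive X chromosome, read 1.74 and 449 there, 0.221 and 416 (Pkd1 controls), 25.3 and 27.7 (Pkd1 knockouts) or 346 and 350 (Pkd2 controls), and its part in any value below was not tested. Lrp2, the endocytic receptor of the proximal tubule, was at 339 to 1669 in all libraries.

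Dio1 fell in value and Dio2 rose in value in the knockouts of both models, and the balance of the 2 mRNAs moved with them. Dio1 had values of 14.2 and 9.05 in Pkd1 control kidneys against 3.42 and 0.995 in Pkd1 knockout kidneys. In the older mice of the Pkd2 model, controls had 25.9 and 28.2 against 7.23 and 6.47 in knockouts. Every knockout library lay below every control library, of its own age and of the other. The ratio of group means was 5.27-fold lower in the Pkd1 knockouts and 3.94-fold lower in the Pkd2 knockouts. On the log2(value + 1) scale the differences were -2.06 ± 0.35 and -1.84 ± 0.35 (SE from the fit of all 8 libraries). The lowest value rests on 47 reads, and the difference in the Pkd1 model was -1.48 without knockout replicate 2 and -2.63 without knockout replicate 1.

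Dio2 had values of 1.17 and 1.42 in Pkd1 control kidneys against 5.99 and 7.45 in Pkd1 knockout kidneys. In the Pkd2 model, controls had 1.118 and 0.993 against 20.7 and 58.1 in knockouts. The 4 control libraries thus lay within a narrow range near 1, each knockout library was above them, and the Pkd2 knockouts were above the Pkd1 knockouts. Group means were 5.18-fold higher in the Pkd1 knockouts and 37.4-fold higher in the Pkd2 knockouts, with log2 differences of 1.74 ± 0.39 and 4.12 ± 0.39. The Pkd2 knockouts differed from each other by more than any other pair of replicates for this gene, and the log2 difference was 3.40 without replicate 2 and 4.85 without replicate 1. Control values rest on 43 to 143 reads, and the log2(value + 1) scale understates a change from such levels: with a pseudocount of 0.1 the differences were 2.285 and 4.915.

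**Figure D1:**
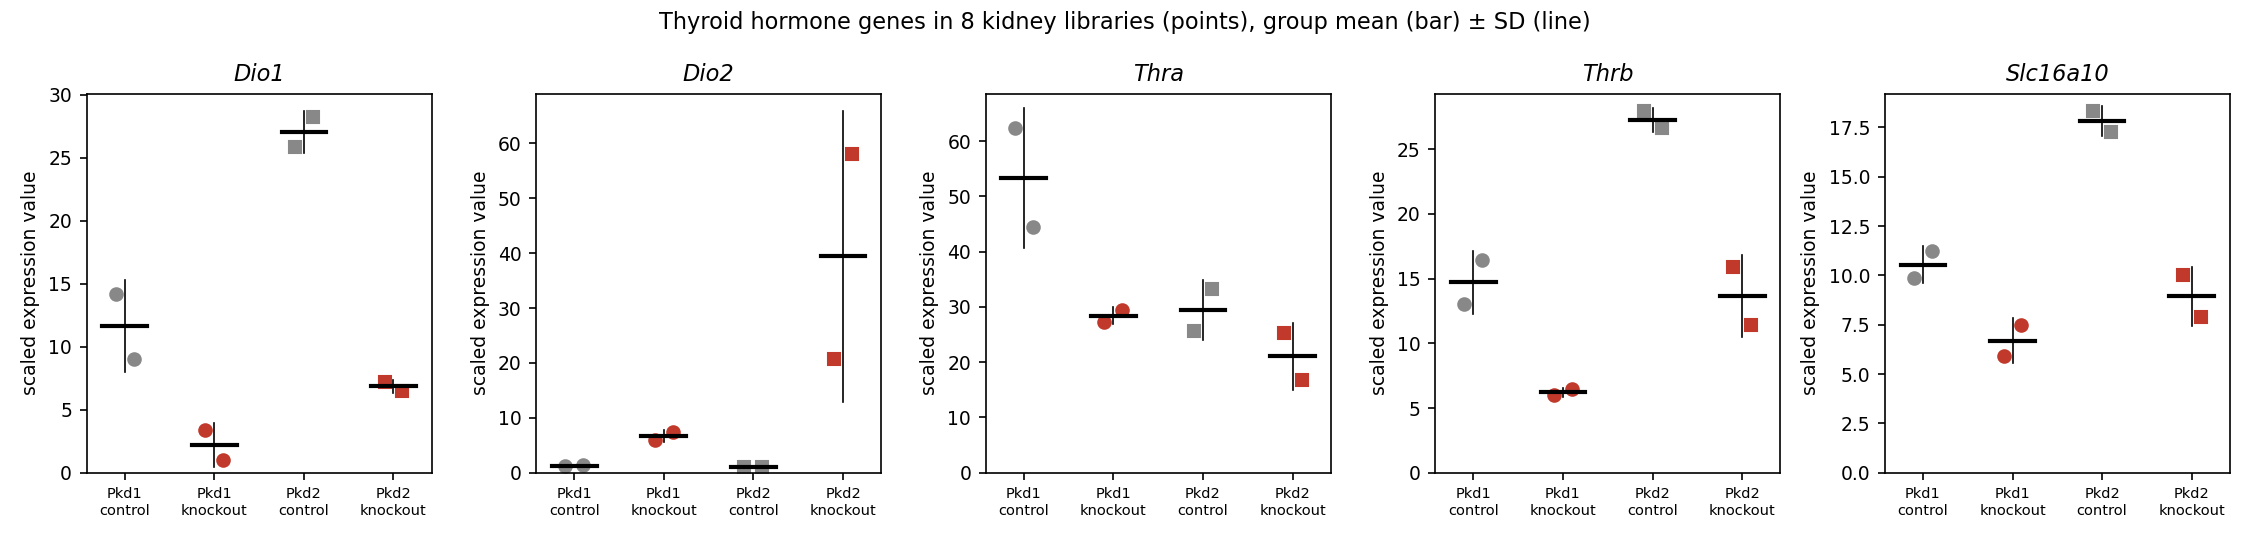
Scaled expression values of Dio1, Dio2, Thra, Thrb and Slc16a10 (y axes, linear, a separate scale for each gene) in the 8 kidney libraries. Points are libraries, with gray for controls and red for knockouts, circles for the Pkd1 model and squares for the Pkd2 model; bars are group means and lines are ± SD (n = 2). Dio2 is near 1 in all controls and reaches 58.1 in a Pkd2 knockout, while Dio1, Thrb and Slc16a10 are highest in the Pkd2 controls.

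Divided by exon length (the union of GENCODE M21 exons, 1970 bases for Dio1 and 5815 for Dio2), the 2 deiodinase mRNAs can be set against each other within a library. The ratio of Dio2 to Dio1 per kb was 0.0280 and 0.0532 for the Pkd1 controls, so that Dio1 exceeded Dio2 by 35.8- and 18.8-fold. Pkd2 controls had the lowest ratios of the 4 groups, 0.0146 and 0.0119. In the knockouts it reached 0.593 and 2.54 (Pkd1) and 0.970 and 3.04 (Pkd2). In each knockout group 1 library had more Dio2 than Dio1 mRNA per length and the other had less, and no control library came near that balance.

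**Figure D2:**
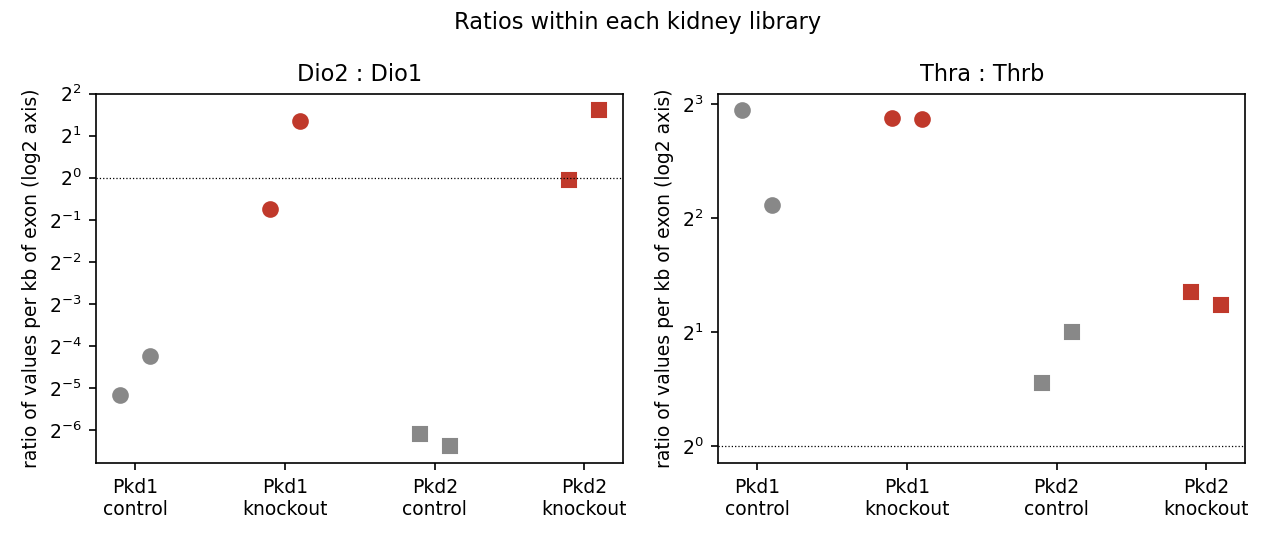
Ratio of values per kb of exon within each kidney library, on log2 axes, for Dio2 over Dio1 (left) and Thra over Thrb (right). Points are libraries in the colours and shapes of the plot of the 5 genes, and the dotted line marks equal values. The Dio2 to Dio1 ratio is at most 0.0532 in controls and at least 0.593 in knockouts, while the Thra to Thrb ratio separates the ages.

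Both deiodinases are selenoproteins, in which a TGA codon inside the reading frame is read as selenocysteine in the catalytic centre. The codons are shown because they are the shared active site of the 2 enzymes that moved in opposite directions. In GENCODE M21 (GRCm38) that of Dio1 is codon 126 of 257 at chr4:107297700-107297702, in exon 2 of 4, and that of Dio2 is codon 130 of 266 at chr12:90729823-90729825, in exon 2 of 2. The coding strand (both genes lie on the minus strand) reads 5′ to 3′ as follows, with the selenocysteine codon in capitals.
Dio1: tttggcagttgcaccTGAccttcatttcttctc
Dio2: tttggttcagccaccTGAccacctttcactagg
Dio2 carries another such codon near its end, codon 263. Dio1 itself spans chr4:107291465-107307169 and Dio2 chr12:90724554-90738438 in the kidney table.

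The 250 bases upstream of the RefSeq start (GRCm38.p6, minus strand, 5′ to 3′) are shown for the same 2 genes, since their mRNAs moved apart. They were searched on both strands for TGACGTCA (the cyclic AMP response element, the same on both strands), AGGTCA (the half-site bound by thyroid hormone receptors and other nuclear receptors) and TATAAA (the TATA box); matches are in capitals. The windows are chr4:107307169-107307418 for Dio1 and chr12:90739039-90739288 for Dio2.
Dio1: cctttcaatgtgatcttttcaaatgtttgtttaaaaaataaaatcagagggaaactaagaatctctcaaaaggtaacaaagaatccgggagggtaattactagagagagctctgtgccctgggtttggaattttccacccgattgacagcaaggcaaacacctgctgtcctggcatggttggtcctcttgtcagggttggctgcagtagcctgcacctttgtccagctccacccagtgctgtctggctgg
Dio2: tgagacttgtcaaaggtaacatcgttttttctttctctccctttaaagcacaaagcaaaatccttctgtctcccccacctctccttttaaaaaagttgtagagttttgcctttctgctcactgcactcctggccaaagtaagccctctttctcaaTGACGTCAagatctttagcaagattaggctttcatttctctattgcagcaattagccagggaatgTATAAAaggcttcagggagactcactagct
The Dio2 window held TGACGTCA, ending 88 bases before the start, and TATAAA, ending 25 bases before it, and the Dio1 window held none of the 3 motifs. Among 32841 upstream windows of that length, 1.55% held TGACGTCA, 14.0% AGGTCA and 12.4% TATAAA. Thrb has 2 windows, of which 1 held AGGTCA and the other TATAAA, and the Slc16a10 window held none of the 3. The RefSeq start of Dio2 lies 600 bases upstream of the gene's edge in the kidney table.

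Dio1 is a proximal tubule gene, and the proximal tubule markers were lower in the same libraries. The summed value of 12 of them went from 2988 and 3375 to 939 and 1382 in the Pkd1 model and from 6413 and 6841 to 3912 and 2047 in the Pkd2 model, with none of the 12 at 0. In the limma fit, 9 of the 12 were lower with Pkd1 deleted and 8 with Pkd2 deleted, against 5.48% and 8.13% of the 14637 genes tested, and none was higher. The log2 difference of Dio1 was below that of 10 of the 12 in the Pkd1 model (their median -1.54) and below all 12 in the Pkd2 model (median -1.26). Per 1000 of the marker sum, Dio1 went from 4.75 and 2.68 to 3.64 and 0.720 (Pkd1 model) and from 4.03 and 4.12 to 1.85 and 3.16 (Pkd2 model). The groups overlapped on this measure at day 10 and did not at day 20. In a whole kidney, fewer proximal tubule cells and less RNA per cell cannot be told apart.

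Markers of macrophages and of smooth muscle and pericytes were higher in the knockouts beside Dio2, and those of brown fat, its best known site, were not. The 6 macrophage markers (Adgre1, Csf1r, C1qa, C1qb, Cd68 and Mrc1) summed to 36.9 and 32.2 in controls against 98.5 and 99.2 in knockouts of the Pkd1 model, and to 36.2 and 37.1 against 145 and 169 in the Pkd2 model, and all 6 were called higher in both models. Dio2 differed by more than 5 of the 6 in the Pkd1 model and by more than all 6 in the Pkd2 model, and per 100 of their sum it went from 2.67 to 4.42 in the controls to 6.08 and 7.51 (Pkd1) and 14.3 and 34.3 (Pkd2) in the knockouts. The 4 smooth muscle and pericyte markers (Acta2, Myh11, Tagln and Rgs5) summed to 205 and 197 in controls against 649 and 716 in knockouts of the Pkd1 model, and to 68.5 and 72.9 against 233 and 187 in the Pkd2 model, and 3 of the 4 were called higher in both. Dio2 differed by more than 1 of these 4 in the Pkd1 model and by more than all 4 in the Pkd2 model, and per 100 of their sum it went from 0.573 and 0.722 to 0.923 and 1.04 and from 1.63 and 1.36 to 8.88 and 31.1. The 5 fibroblast markers summed to 998 and 673 in controls against 1374 and 1085 in knockouts of the Pkd1 model. In the Pkd2 model they summed to 469 and 506 against 956 and 1145. None of the 5 was called in the Pkd1 model, where 2 had positive and 3 negative log2 differences. In the Pkd2 knockouts 2 were called higher. Of all genes, 5.11% and 9.54% were called higher in the Pkd1 and Pkd2 models. The part of these cell types in the Dio2 values was not tested. The 8 brown fat markers summed to 81.8 and 67.4 in controls against 80.8 and 78.9 in knockouts at day 10. At day 20 they summed to 121 and 170 against 77.4 and 26.2. Most of each sum was Fabp4, at 64.6 and 61.2 against 56.9 and 72.0 at day 10. At day 20 Fabp4 was at 80.3 and 102 against 65.45 and 25.1. Ucp1, the uncoupling protein of brown fat, was at 6.23 and 1.86 against 9.06 and 1.71 at day 10. At day 20 Ucp1 was at 15.2 and 24.4 against 1.71 and 0. None of the 7 brown fat markers tested was called in the Pkd1 model. In the Pkd2 knockouts 4 were lower, as were 8.13% of all genes. Pkd2 knockout replicate 2, with the highest Dio2, had Ucp1 and Cox8b at 0. Ckm, the creatine kinase of skeletal muscle, was at most 0.0437 in every library, Acta1 at most 0.208 and Mylpf at most 0.295. Tnnt3, the other skeletal muscle marker listed, was at 0.765 to 2.27 in the day 10 libraries and at 0 to 0.390 at day 20.

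**Figure D3:**
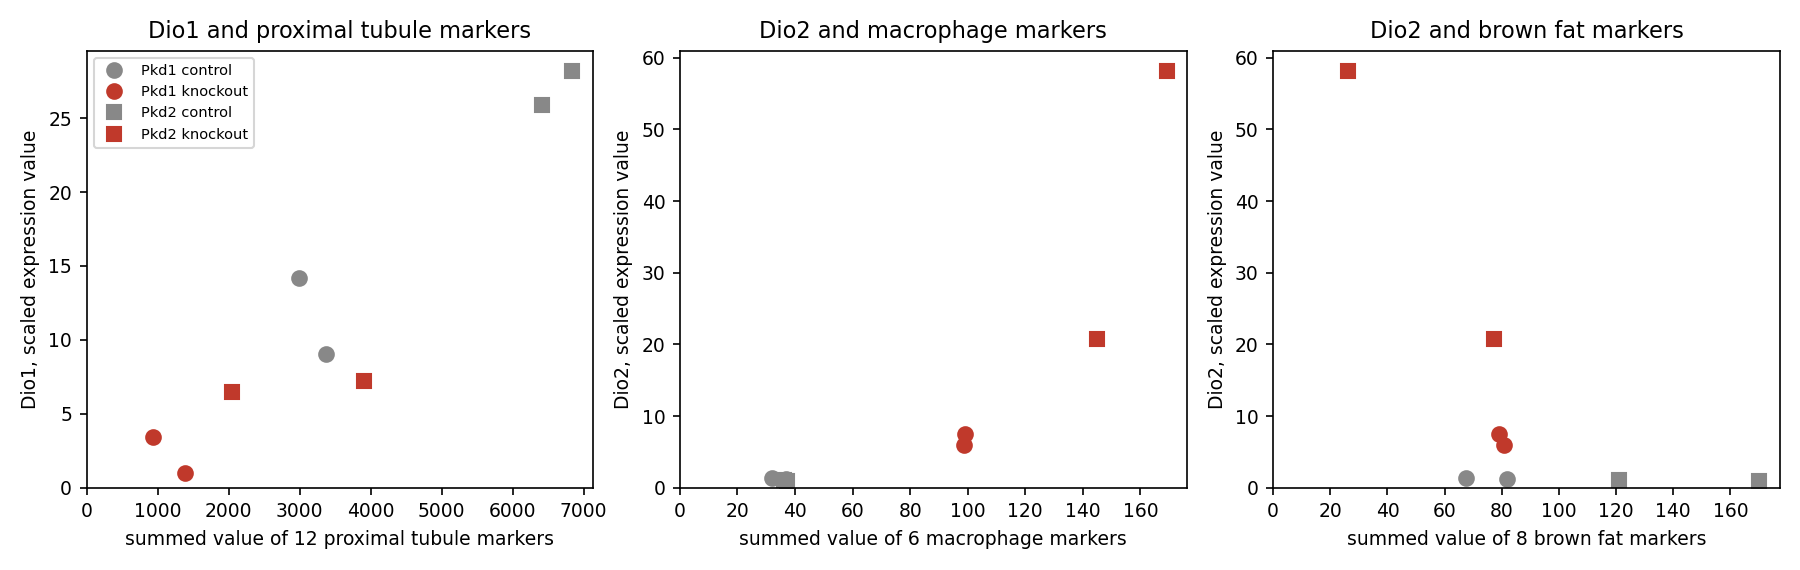
Dio1 against the summed value of 12 proximal tubule markers (left) and Dio2 against those of 6 macrophage markers (middle) and 8 brown fat markers (right), in scaled expression values on linear axes starting at 0. Each point is 1 of the 8 kidney libraries, gray for controls, red for knockouts, circles for Pkd1 and squares for Pkd2. The library with Dio2 at 58.1 has the highest macrophage sum (169) and the lowest brown fat sum (26.2). The brown fat sum is mostly Fabp4 in each library.

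The receptors were both at lower values in the knockouts, with clearer separation for Thrb than for Thra. Thra encodes the receptor that prevails in heart, bone and brain, and its second main isoform binds no hormone; the gene-level values do not separate the isoforms. At day 10, Thra had values of 62.3 and 44.4 without Cre and 27.3 and 29.5 with it. At day 20, it had 25.6 and 33.3 without Cre and 25.3 and 16.8 with it. The day 10 controls thus stood above all other libraries, and the Pkd2 knockouts fell short of their controls by as little as 25.3 against 25.6. The log2 differences were -0.87 ± 0.25 and -0.48 ± 0.25, and the latter was -0.18 after removal of mitochondrially encoded genes and rescaling, and -0.20 without Pkd2 knockout replicate 2.

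Thra (chr11:98740638-98769006, plus strand) overlaps the clock gene Nr1d1 on the opposite strand at chr11:98767932-98769006, where 263 bases are exon in both, 5.70% of the exon bases of Thra. No source used here says whether the counting used strand, so reads there may count for either. Nr1d1 went from 1.90 and 1.60 to 2.27 and 2.26 in the Pkd1 model and from 5.85 and 12.7 to 3.64 and 2.68 in the Pkd2 model. It was lower in the Pkd2 knockouts by -1.23 ± 0.30 (limma, adjusted p = 0.0241) and higher in the day 20 than in the day 10 controls by 1.82 ± 0.30 (adjusted p = 0.00644). The antisense gene was low in the day 10 controls, where Thra was highest. In the Pkd2 model both genes ranked the libraries in the same order. The level of Nr1d1 was below that of Thra in each library, and its part in the Thra values was not tested. None of the other 4 genes overlaps a gene with a mean value of 1 or more.

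Thrb encodes the receptor that prevails in liver and in the pituitary feedback on the thyroid. At day 10, Thrb had values of 13.0 and 16.4 without Cre and 5.99 and 6.48 with it. At day 20, it had 27.9 and 26.6 without Cre and 15.9 and 11.4 with it. Knockout means were 2.36-fold lower in the Pkd1 model and 1.99-fold lower in the Pkd2 model, and the groups did not overlap within a model. The log2 differences were -1.11 ± 0.20 and -0.96 ± 0.20. Per 1000 of the proximal tubule marker sum, Thrb ran from 3.89 to 4.87 in controls and from 4.07 to 6.38 in knockouts, so that these ranges overlapped.

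Per kb of exon (4614 bases for Thra and 7403 for Thrb), Thra exceeded Thrb in every library. The ratio was 7.69 and 4.33 for Pkd1 controls against 7.32 and 7.31 for Pkd1 knockouts. For the Pkd2 model it was 1.47 and 2.01 against 2.55 and 2.36. All day 10 libraries were above all day 20 libraries, while knockouts and controls overlapped at day 10 and were apart at day 20.

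Slc16a10, the transporter of triiodothyronine, thyroxine and aromatic amino acids, had values of 9.89 and 11.2 in day 10 controls against 5.90 and 7.49 in Pkd1 knockouts. Day 20 controls had 18.3 and 17.3 against 10.0 and 7.88 in Pkd2 knockouts. The groups did not overlap in either model, and the log2 differences were -0.59 ± 0.19 and -0.93 ± 0.19. Per 1000 of the proximal tubule marker sum it went from 3.31 and 3.32 to 6.29 and 5.42 in the Pkd1 model, so the direction turned on that measure at day 10. In the Pkd2 model it went from 2.86 and 2.52 to 2.56 and 3.85, and the groups overlapped.

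In the cells, Slc16a10 was at 3957 and 4216 with the control gapmer and at 3369, 3254 and 3281 with the Hoxb3os gapmer (normalised counts of the cell table, on another scale than the kidney values). The 2 groups did not overlap, and the authors' deposited table gives a log2 fold change of -0.29 with an adjusted p of 4.31e-08. That table holds only genes under an adjusted p of 0.05, so presence in it is a selection, and Dio1, Dio2, Thra and Thrb were not analysed in cells here.

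For reference only, the call rule of the fit (limma, Benjamini-Hochberg adjusted p under 0.05 over all 14637 genes) takes in 3 of the 5 genes in the Pkd1 model (Dio1, Dio2 and Thrb) beside 10.6% of all genes, and 4 in the Pkd2 model (all but Thra) beside 17.7%. Dio2 was the 1 gene called higher in each (background 5.11% and 9.54% of all genes), and the others called were lower (5.48% and 8.13%). Libraries did not overlap for any of the 5 in either model, as was so for 29.1% of all genes as higher and 29.2% as lower in the Pkd1 model, and for 31.9% and 30.9% in the Pkd2 model. Since the genes were picked with these contrasts in view, nothing is read from those counts. For the difference between the knockout effects the rule takes in 0.00683% of all genes and none of the 5, from which nothing is read either. The difference (Pkd1 minus Pkd2) was -2.38 ± 0.55 on the log2 scale for Dio2, -0.22 ± 0.49 for Dio1, -0.39 ± 0.35 for Thra, -0.15 ± 0.28 for Thrb and 0.34 ± 0.26 for Slc16a10. The authors' deposited table, which gives control minus knockout, has log2 changes of 2.39 and 1.98 for Dio1, -2.38 and -5.22 for Dio2, 0.91 and 0.48 for Thra, 1.24 and 0.99 for Thrb, and 0.66 and 0.99 for Slc16a10, in the Pkd1 and Pkd2 models.

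The order of the 4 groups differed among the genes. Dio1 was highest in the Pkd2 controls, followed by the Pkd1 controls, the Pkd2 knockouts and the Pkd1 knockouts, with no overlap between neighbours. Thrb and Slc16a10 followed the same order, but their Pkd1 controls and Pkd2 knockouts overlapped. Thra put the Pkd1 controls first, and the Pkd2 controls and Pkd1 knockouts, next in order, overlapped. Dio2 alone had both knockout groups on top.

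Between control kidneys of day 10 and day 20, Dio1, Thrb and Slc16a10 were higher at the later age, by 1.18 ± 0.35, 0.85 ± 0.20 and 0.70 ± 0.19 on the log2 scale. Thra was lower by -0.83 ± 0.25, and Dio2 differed by -0.16 ± 0.39. The call rule takes in Thrb and Slc16a10 as higher, beside 12.3% of all genes, 5.04% higher and 7.26% lower. All 5 had no overlap of libraries, which held for 31.1% of all genes as higher and 31.2% as lower, and nothing is read from these counts. These controls are the ones the knockouts were set against and they also carry different floxed genes, so age and allele cannot be told apart. The proximal tubule marker sum was higher at day 20 in the same libraries, with 1 of 12 markers called, and the thick ascending limb markers (Umod, Slc12a1, Cldn16 and Egf) summed to 1039 and 830 at day 10 against 4132 and 4113 at day 20, with 3 of 4 called higher. Their part in the 3 differences was not tested.

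The genes whose values ran most like each of the 5 were taken from 9466 genes with a mean value of at least 5, by Pearson's r of log2(value + 1) over the 8 libraries. The libraries share 4 groups of genotype and age, so r is given as a description. Dio1 ran with Slc25a38, a mitochondrial glycine carrier (r = 0.991), Tufm, a mitochondrial elongation factor (0.977), and Inpp4b, a phosphoinositide phosphatase (0.976). Dio2 ran with Ltbp2, an extracellular matrix protein (0.982), Arhgap30, a GTPase-activating protein of blood cells (0.980), and Lcp1, the plastin of leukocytes (0.976). Thra ran with the muscle kinase gene Speg (0.983), the secreted C1qtnf2 (0.980) and Acbd6 (0.975). Thrb ran with Aldh6a1, an enzyme of valine breakdown (0.996), Sord, sorbitol dehydrogenase (0.995), and the kinase Sgk2 (0.994). Slc16a10 ran with Slc9a3, the sodium-proton exchanger of the proximal tubule (0.990), Kng2, a kininogen (0.990), and Coq5, an enzyme of ubiquinone synthesis (0.989).

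Around these 5 genes, 69 others of the same pathway were listed by role, and 64 were high enough to be tested. Among the 5 that were not was Dio3, the deiodinase that inactivates the hormone, at 0.0437 to 0.277 in all libraries. In the Pkd1 knockouts, 2 of the 64 were higher and 9 lower (limma, adjusted p under 0.05), 17.2% against 10.6% of all genes, and the median log2 difference was -0.32 against -0.0021 for all genes. In the Pkd2 knockouts, 4 were higher and 17 lower, 32.8% against 17.7%, with a median of -0.42 against -0.0082. Of these calls, 4 of 11 (Slc7a5, Slc7a8, Slc10a1 and Slc34a1) and 4 of 21 (Slc10a1, Alb, Thrsp and Slc9a3) held under all 17 other settings and left-out libraries. The count in the Pkd2 model was 9 after mitochondrially encoded genes were removed, and 6, 7, 9 and 28 without Pkd2 control replicate 1, Pkd2 control replicate 2, Pkd2 knockout replicate 2 and Pkd2 knockout replicate 1. That in the Pkd1 model was 5 without either Pkd1 control.

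Of the tested transporters of the hormone, 5 of 7 were called in each model, 4 lower and 1 higher. Of all genes, 10.6% were called in the Pkd1 model (5.11% higher, 5.48% lower) and 17.7% in the Pkd2 model (9.54% higher, 8.13% lower). Slc7a8, which carries iodothyronines along with neutral amino acids, fell by 1.79 ± 0.25 and 1.47 ± 0.25 on the log2 scale in the Pkd1 and Pkd2 models (limma, adjusted p = 0.00447 and 0.00585). Slc10a1, a bile acid carrier that also takes up the hormone, fell by 1.69 ± 0.23 and 1.37 ± 0.23 from values of at most 5.35 (adjusted p = 0.00389 and 0.00543). Slc3a2, the heavy chain that pairs with Slc7a5 and Slc7a8, fell by 0.82 ± 0.19 in both (adjusted p = 0.0309 and 0.0208). Slc7a5, a light chain of the same transporter family, was the member that rose, from 1.52 and 1.18 to 5.38 and 6.39 in the Pkd1 knockouts (1.55 ± 0.21, adjusted p = 0.00423) and from 1.09 and 1.19 to 1.99 and 3.33 in the Pkd2 knockouts (0.75 ± 0.21, adjusted p = 0.0419). Its span overlaps the predicted gene Gm20388, which has a higher value on the opposite strand, so its reads are uncertain. The Pkd2 call of Slc7a5 held under 4 and the Pkd1 call of Slc3a2 under 8 of the 17 other settings and left-out libraries.

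Among genes of deiodination and hormone breakdown, 1 of 7 was lower in the Pkd1 and 2 in the Pkd2 knockouts, and none was higher (5.48% and 8.13% of all genes were lower). Aadat, an aminotransferase known to act on kynurenine and iodothyronines, fell by 1.69 ± 0.37 and 1.67 ± 0.37 (limma, adjusted p = 0.0235 and 0.0166), and the sulfotransferase Sult1b1 fell by 1.11 ± 0.31 in the Pkd2 knockouts (adjusted p = 0.0388). Of the plasma carriers, Ttr (transthyretin) fell by 1.22 ± 0.25 in the Pkd1 knockouts (adjusted p = 0.0185). Alb (albumin) fell by 3.72 ± 0.59 in the Pkd2 knockouts (adjusted p = 0.00467), from 18.2 and 11.7 to 0.392 and 0. Of 8 genes listed under selenoprotein synthesis, which include the selenoproteins Selenop and Selenof themselves, none was called in the Pkd1 model. Their log2 differences there ran from -0.71 to 0.38, the highest being that of Selenof. Sephs2, selenophosphate synthetase, fell by 0.75 ± 0.20 in the Pkd2 knockouts (limma, adjusted p = 0.0338). Of 6 genes that attach ubiquitin to the DIO2 protein or remove it, none was called in the Pkd1 model. In the Pkd2 model 2 were higher, as were 9.54% of all genes. Wsb1, the adaptor that recognises DIO2, rose by 0.92 ± 0.19 in the Pkd2 knockouts (adjusted p = 0.0130), from 58.7 and 61.8 to 108 and 122, and the conjugating enzyme Ube2j1 rose by 0.55 ± 0.16 (adjusted p = 0.0493). In the Pkd2 model the call of Ube2j1 held under 3, that of Sult1b1 under 6 and that of Sephs2 under 7 of the 17 other settings and left-out libraries.

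Of the receptor partners and coregulators, none of 16 was called in the Pkd1 model, with log2 differences from -0.60 to 0.35, and 1 of 16 in the Pkd2 model, where 10.6% and 17.7% of all genes were called. That was Ppargc1a, a coactivator of mitochondrial genes, which fell by 1.28 ± 0.23 (limma, adjusted p = 0.00792), from 124 and 89.9 to 46.2 and 39.6.

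Of 18 genes known elsewhere to respond to thyroid hormone, 1 was higher and 3 were lower in the Pkd1 knockouts, with a median log2 difference of -0.18 (all genes -0.0021; 5.11% called higher and 5.48% lower). In the Pkd2 knockouts 1 was higher and 8 were lower, with a median of -0.84 (all genes -0.0082; 9.54% higher and 8.13% lower). Slc34a1, the sodium-phosphate cotransporter of the proximal tubule, fell by 2.32 ± 0.28 and 1.68 ± 0.28 (limma, adjusted p = 0.00252 and 0.00534), and Slc9a3 fell by 1.32 ± 0.24 and 2.10 ± 0.24 (adjusted p = 0.0113 and 0.00126). Igf1, a growth factor, fell by 1.39 ± 0.25 and 0.89 ± 0.25 in the Pkd1 and Pkd2 knockouts (limma, adjusted p = 0.0101 and 0.0392). Its Pkd2 call held under 7 of the 17 other settings and left-out libraries. Gpd2, the mitochondrial glycerol phosphate dehydrogenase, was the gene that rose in the Pkd1 knockouts, by 0.95 ± 0.18 (adjusted p = 0.0139). In the Pkd2 knockouts Thrsp, a lipogenic gene induced by the hormone in liver and fat, fell by 2.17 ± 0.34 (adjusted p = 0.00449), from 3.64 and 7.50 to 0.785 and 0.0925. Atp1b1, the beta subunit of the sodium pump, fell by 1.36 ± 0.22 there (adjusted p = 0.00500), and Bcl3 rose by 1.08 ± 0.22 (adjusted p = 0.0121; named after its value was seen, as the single gene to rise). Brown fat markers were also low in the Pkd2 knockouts, beside Thrsp, and proximal tubule markers in the knockouts of both models, beside Slc34a1 and Slc9a3. Thick ascending limb markers were lower as well, with 3 of 4 called in each model (median log2 differences -1.28 and -1.63). The part of these cell types was not tested.

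**Figure D4:**
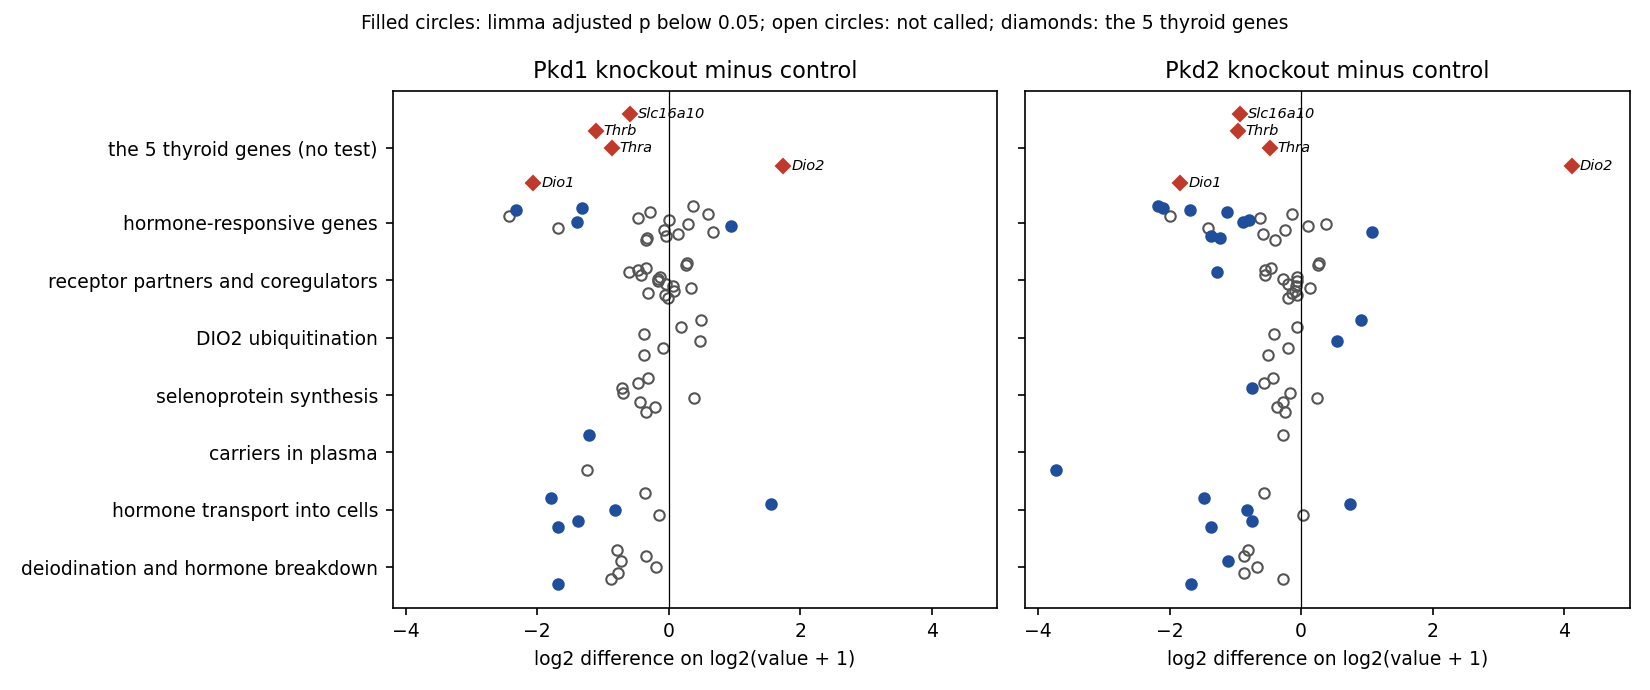
Log2 differences (x axes, log2(value + 1) scale) of the 64 tested pathway genes, 1 circle each, by list (y axis), for Pkd1 (left) and Pkd2 (right) knockouts minus controls, with vertical offsets to separate points. Filled circles passed an adjusted p of 0.05 in limma; diamonds are the 5 genes described without a test. The called transporters sit below 0 with Slc7a5 above it, and the coregulators range from -0.60 to 0.35 in the Pkd1 and from -1.28 to 0.28 in the Pkd2 model.

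None of the 64 passed a test of the difference between the 2 knockout effects (limma, smallest adjusted p = 0.147), and edgeR called none. In limma, 10 of the 64 had an unadjusted p under 0.05, beside 1207 of all 14637 genes. DESeq2 on the recovered reads called 2, Thrsp and Atp1b1, and removal of mitochondrially encoded genes with rescaling gave 1 call, Thrsp. For both genes the difference (Pkd1 minus Pkd2) was positive in these fits.

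Between the control ages, 10 of the 64 were higher at day 20 and 2 lower, 18.8% against 12.3% of all genes. In the hormone-responsive list 7 of 18 were higher and none lower, among them Klf9, a transcription factor gene induced directly by the receptors, from 13.3 and 14.4 to 39.7 and 31.5 (1.29 ± 0.19, limma, adjusted p = 0.00388). Thrsp rose by 2.17 ± 0.34, Slc9a3 by 1.63 ± 0.24 and Atp1b1 by 1.496 ± 0.22 (adjusted p = 0.00561, 0.00435 and 0.00439). All 7 tested brown fat markers were also higher at day 20 (median log2 difference 1.63, 2 called), beside Thrsp, as were 3 of 4 thick ascending limb markers by the call rule, and their part was not tested. The organic anion carrier Slco4c1 rose by 1.92 ± 0.19 and the sulfotransferase Sult1c2 by 1.122 ± 0.29 (adjusted p = 0.000983 and 0.0353). Ugt1a1, a glucuronosyltransferase whose last exons are shared with its gene cluster so that its reads are uncertain, rose by 1.97 ± 0.27 (adjusted p = 0.00304). Ttr fell by 1.72 ± 0.25 and the transporter Slc17a4 by 0.85 ± 0.23 (adjusted p = 0.00409 and 0.0438), and the calls of Slc17a4 and Sult1c2 held under 4 and 10 of the 16 other settings and left-out libraries. Calls held under all 16 other settings and left-out libraries for 5 of the 12 (Ugt1a1, Slco4c1, Ttr, Thrsp and Slc9a3), and the count ranged from 7 to 19. It was 7 without Pkd1 control replicate 1 or Pkd2 control replicate 2, and 19 without either Pkd2 knockout, whose spread enters the same fit.

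The cell table held 9 of the 69 pathway genes (13.0%), 2 higher and 7 lower with the Hoxb3os gapmer, where 44.4% of its 2016 genes were higher and 55.6% lower. The coactivator Ncoa2 went from 3182 and 3177 to 1981, 2102 and 2097, the largest change of the 9 (log2 fold change -0.58 in the authors' deposited table). Ppargc1a went from 838 and 1148 to 692, 619 and 645 (-0.32 in the authors' deposited table). Others that were lower, in the authors' deposited table, were Cpt1a, an enzyme of fatty acid entry into mitochondria (-0.30), the corepressor Hr (-0.26), Pdk4, a kinase of pyruvate dehydrogenase (-0.26) and Tbl1x, a corepressor subunit (-0.13). Slc3a2 (0.16) and the mediator subunit Med1 (0.14) were higher there. The deposited changes of Ppargc1a and Pdk4 are smaller in size than the log2 ratios of the group means of the deposited values, -0.61 and -0.62, where Ncoa2 has -0.63. For all 9 the libraries of the 2 gapmers did not overlap, which the selection of the table favours. The share of such genes among the 2016 was not computed, so nothing is read from that count. The cell table holds only selected genes, so no share over all measured genes can be set beside the 13.0%.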

How the data were processed

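RNA-seq of 8 kidney and 5 mIMCD-3 samples was analysed from the deposited tables. For kidneys, the submitters' processing notes list RSEM 1.2.22, STAR 2.4.2a, edgeR, Cufflinks 2.2.1 and FastQC 0.11.2 (build mm10), and for cells DESeq2 1.12.3, STAR 2.4.2a, Trimmomatic 0.32 and SAMtools 1.0 (GRCm38); which tool did what, the annotation and any strand setting were not found in the sources used here. The kidney signal deposited by the authors is read from its values as estimated reads relative to library size, divided by a scaling factor per library; 93.9% to 96.2% of genes per library came out as whole reads within 0.02, least in Pkd1 control replicate 1, whose reads are the least certain. The cell signal deposited by the authors is a read count divided by a size factor. The authors also deposited log2 fold changes, p-values and likelihood ratio scores, per the file headers; the scores were not used. The titles of the Pkd2 knockouts carry "(WT)" while their genotype lists Pkhd1/Cre+, and they were grouped by genotype.

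Genes that reached a value of 1 in 2 or more libraries were fitted with limma 3.58.1 (trend, R 4.3.3) on log2(value + 1), 4 groups over 8 libraries, 4 residual degrees of freedom, Benjamini-Hochberg adjustment. Recovered reads were tested with edgeR 4.0.16 and DESeq2 1.42.0 as alternatives, beside quantile normalization, no filter, a pseudocount of 0.1, each model fitted alone, a replicate block, removal of mitochondrially encoded genes and fits with 1 library fewer, in which the remaining library of a group is assumed as variable as the others. Removal of mitochondrially encoded genes included rescaling each library to the sum of its other genes, which drops the authors' factor per library. The fit was also run on simulated reads, with the same dispersion for every gene and changes in the Pkd1 knockouts only. That setting is simpler than these data, and nothing is read from it here. The 5 genes and all lists were chosen with earlier results of these data known. Named pathway genes are up to 4 per list and contrast with the smallest adjusted p, plus Dio3 and Nr1d1; some genes counted in the lists are not reported here. Sequences come from RefSeq (GRCm38.p6) and the genome with GENCODE M21; 4 of the 5 genes had a promoter entry.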

Additional observations from a re-analysis of the deposited data

How the results depend on the processing

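The direction of all 5 genes in both knockout contrasts held in all 170 values under other settings, and that between the control ages in all 80. Many of these values could not differ from the main fit. Dropping the filter, or leaving out a library outside the contrast, does not change a log2 difference. Fitting each model alone or adding a replicate block does not change the knockout differences either. The genes were also picked with results in view, so nothing is read from these tallies. Dio1 in the Pkd1 knockouts moved to -2.54 with a pseudocount of 0.1. Dio2 moved to 2.285, 2.38 and 2.36 (Pkd1) and to 4.915, 5.24 and 5.20 (Pkd2) with that pseudocount, DESeq2 and edgeR. Removal of mitochondrially encoded genes came with a rescaling that also drops the authors' factor per library, and these steps were not run apart. Together they put the median of all genes at 0.267 in the Pkd2 contrast and -0.192 between control ages. They moved Thra to -0.18, Thrb to -0.68 and Slc16a10 to -0.65 in the Pkd2 knockouts. That setting gave 9 called pathway genes in the Pkd2 contrast, 7 between control ages and 1 for the difference of effects. DESeq2 gave 19 between ages and 2 for the difference. Without both Pkd2 knockout replicate 2 and Pkd1 control replicate 1, a setting chosen after seeing the data, 9 pathway genes were called in the Pkd2 contrast, with Dio2 at 3.40 and Thrb at -0.74. Leaving out single libraries gave 5 to 14 called genes (Pkd1), 6 to 28 (Pkd2), 7 to 19 (ages) and 0 to 0 (difference), and moved Dio1 (Pkd1) between -2.63 and -1.48, Dio2 (Pkd2) between 3.40 and 4.85 and Thrb (Pkd2) between -1.18 and -0.74. The cause of these shifts was not tested. Replicate numbers did not pair the samples (correlation of deviations -0.378 and -0.049), and a replicate block gave 12, 14, 14 and 0 called genes.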
